A study of Mus musculus with 13 samples.

Results

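Integrins and the neural adhesion molecules of the immunoglobulin superfamily were followed in sorted cells of mouse medulloblastoma, a cerebellar tumour, with and without the histone methyltransferase gene Kmt2d. The genes were taken from the count table by symbol: every integrin alpha and beta chain, contactins 1 to 6, and L1cam, Nrcam, Nfasc, Chl1, Ncam1, Ncam2, Cadm1, Cadm2 and Cadm3. This gave 41 of the 53653 genes in the table, 26 integrins (18 alpha and 8 beta chains) and 15 neural adhesion molecules (6 contactins, 4 members of the L1 family, 3 of the Cadm family and 2 of the Ncam family). By edgeR, L1cam, Cntn1, Nfasc and Cadm3 were lower in both knockout groups than in control tumours, while no difference was detected for the main integrin chain, Itgb1. Between spinal metastases and primary tumours of the knockout, edgeR called none of the 40 genes it tested and DESeq2 called 1, Itgb5.

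All tumours carried SmoM2, a Smoothened protein that stays active and so keeps Sonic Hedgehog signalling on, and in all groups GFP-positive cells were sorted after papain digestion. KO primary tumours (cerebellum, 4 libraries numbered 3, 4, 6 and 7) and KO metastases (spinal cord, 4 libraries with the same numbers) came from SmoM2-Kmt2dCf/Cf animals aged 5 to 8 weeks. Control primary tumours (cerebellum, 5 libraries numbered 3 to 7) came from SmoM2 animals with intact Kmt2d aged 6 to 16 weeks, so age differs between the genotypes and cannot be told apart from the knockout. The sorted pellets held 1 to 5 M cells in primary tumours, but 0.1 to 3 M in metastases. The labels name the cells granule cell precursors. They do not state which libraries came from separate mice, nor in which cells the knockout was driven, so p-values measure the spread between these libraries, which may in part be technical. No control metastasis was analysed here.

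Integrins are pairs of an alpha and a beta chain that hold cells to matrix proteins such as laminin and fibronectin, and the beta chain links the pair to actin through talin and kindlin. The neural adhesion molecules carry immunoglobulin domains and bind each other across cell contacts. Contactins are anchored to the membrane by a lipid, the L1 family binds ankyrin through its tail, and the Cadm and Ncam families hold neurons together at axons and synapses. In the cerebellum, granule cell precursors divide in the outer layer, and their daughters switch on Cntn2 (TAG-1) and L1cam as they leave the cycle and extend axons.

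The windows before the start sites of the 5 genes that were lower in KO primary tumours are shown here because these genes fell together and because a shared short motif would be visible in them. Each is the 250 bases before the RefSeq start site on GRCm38.p6, printed 5′ to 3′ on the strand of the gene. Cntn1 is at chr15:92050915-92051164 (plus strand), Cntn2 at chr1:132542941-132543190, L1cam at chrX:73880835-73881084, Nfasc at chr1:132707327-132707576 and Cadm3 at chr1:173367696-173367945 (all minus strand). Capitals mark the letters CAGNTG, a form of the E-box that bHLH factors bind. Other forms of the E-box were not searched. The RefSeq starts of L1cam and Nfasc lie 15271 and 34471 bases inside the gene bounds of the annotation used here.
Cntn1: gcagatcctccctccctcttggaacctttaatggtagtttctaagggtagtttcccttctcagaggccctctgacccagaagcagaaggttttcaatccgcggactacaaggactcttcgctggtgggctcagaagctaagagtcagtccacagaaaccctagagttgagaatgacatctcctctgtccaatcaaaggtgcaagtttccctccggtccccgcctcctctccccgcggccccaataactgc
Cntn2: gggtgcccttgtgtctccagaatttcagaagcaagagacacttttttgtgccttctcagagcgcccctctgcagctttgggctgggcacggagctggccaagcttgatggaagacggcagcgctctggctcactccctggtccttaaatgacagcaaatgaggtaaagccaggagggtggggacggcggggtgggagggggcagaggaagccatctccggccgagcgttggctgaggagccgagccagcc
L1cam: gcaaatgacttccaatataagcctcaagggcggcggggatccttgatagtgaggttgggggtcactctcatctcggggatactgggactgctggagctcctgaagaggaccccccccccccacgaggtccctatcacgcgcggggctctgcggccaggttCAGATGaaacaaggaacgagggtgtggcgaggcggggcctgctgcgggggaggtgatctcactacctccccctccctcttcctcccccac
Nfasc: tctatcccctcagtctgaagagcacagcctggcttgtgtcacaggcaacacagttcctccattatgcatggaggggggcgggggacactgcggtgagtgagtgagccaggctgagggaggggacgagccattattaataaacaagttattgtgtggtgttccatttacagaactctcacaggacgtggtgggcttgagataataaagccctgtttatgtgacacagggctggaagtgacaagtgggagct
Cadm3: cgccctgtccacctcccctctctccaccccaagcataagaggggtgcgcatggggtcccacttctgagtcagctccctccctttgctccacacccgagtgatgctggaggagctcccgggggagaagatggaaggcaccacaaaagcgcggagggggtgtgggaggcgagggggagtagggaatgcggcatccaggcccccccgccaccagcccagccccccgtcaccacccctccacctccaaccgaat

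Of these 5 windows, only L1cam's held CAGNTG. RefSeq windows were matched for 31 of the 41 genes, and 15 of these (48.4%) held CAGNTG on either strand, against 44.8% of 32851 windows of all genes. The GLI letters GACCACCCA stood in 0 of the 31 and in 0.225% of all windows. The RE1 half-site letters TTCAGCACC stood in 0 of the 31 and in 0.301% of all windows. No searched motif was thus common to the 5 genes, and a match or its lack in 250 bases is a description of letters alone. The median number of CpG pairs was 10 in the 31 windows, against 6 in all windows. The 31 are 1 window per gene, the nearest to the annotated gene start. The set of all windows was not reduced in this way, so the 2 sets are unlike. The windows of Cntn3, Cntn4 and Itga9, which held CAGNTG, lie 108434, 441105 and 105002 bases from the annotated gene start.

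Total counts were 35.2 to 41.4 M in KO primary, 27.1 to 40.8 M in KO metastasis and 23.5 to 37.5 M in control primary libraries. Kmt2d itself was at 116 ± 35.7 CPM in KO primary, 115 ± 11.2 in KO metastasis and 125 ± 36.7 in control primary libraries (SD, n = 4, 4 and 5), so the count over the whole gene does not check the genotype. The summed level of 1461 olfactory and vomeronasal receptor genes, which tumour cells are not known to use, exceeded 100 CPM in KO primary 7 (638), KO metastasis 6 (502) and 7 (308) and control primary 3 (1546), and was 74.7 CPM or less in the other 9. The term high-background refers to those 4 libraries. Xist was above 100 CPM in control primary 5, 6 and 7 only, at 324 to 510 CPM, so the controls were of mixed sex by expression. KO metastasis 3 had 2.06% of its counts on mitochondrial genes, against 0.633% to 0.876% in the others. Summed granule cell precursor markers reached 5123 to 6276 CPM in KO primary tumours, 5041 to 6491 CPM in KO metastases and 3464 to 5066 CPM in control primary libraries, and none of the 10 was at 0 in every library.

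Few of the 41 genes supplied most of the adhesion transcripts. Levels are given as CPM, counts brought to a common library size with TMM scaling, and levels of different genes are compared only per kilobase of exon. Among integrins, Itgb1, the beta chain shared by most laminin and fibronectin receptors, was at 77.2 CPM per kb in KO primary, 65.8 in KO metastasis and 73.5 in control primary libraries. It made up 94.4% of the summed beta chain level per kb in KO primary, 89.5% in KO metastasis and 94.0% in control primary libraries. Itga7, an alpha chain for laminin, and Itgav, the chain of RGD receptors, led the alpha chains. Itga7 held 37.6% of the alpha chain level in KO primary, 38.0% in KO metastasis and 54.7% in control primary libraries, and Itgav held 35.7% in KO primary, 37.7% in KO metastasis and 27.8% in control primary libraries.

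Among the neural adhesion molecules, Cadm1 (SynCAM1) was at 49.7 CPM per kb in KO primary, 64.7 in KO metastasis and 44.2 in control primary libraries. Ncam1, the neural cell adhesion molecule that carries polysialic acid, was at 38.0 CPM per kb in KO primary, 51.7 in KO metastasis and 58.3 in control primary libraries. Cntn2 was at 10.7 CPM per kb in KO primary, 25.9 in KO metastasis and 62.1 in control primary libraries. The order of the 3 genes thus differed by group: in control primary tumours Cntn2 and Ncam1 stood above Cadm1, and in KO primary tumours Cntn2 stood far below both. Cntn2 made up 64.8% of the summed contactin level per kb in KO primary, 87.2% in KO metastasis and 91.5% in control primary libraries. Within the L1 family, L1cam made up 3.96% in KO primary, 3.13% in KO metastasis and 15.9% in control primary libraries, and Nrcam 82.2% in KO primary, 81.8% in KO metastasis and 66.2% in control primary libraries. Cadm1 made up 95% of its own family in KO primary, 96.4% in KO metastasis and 84.2% in control primary libraries.

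**Figure D1:**
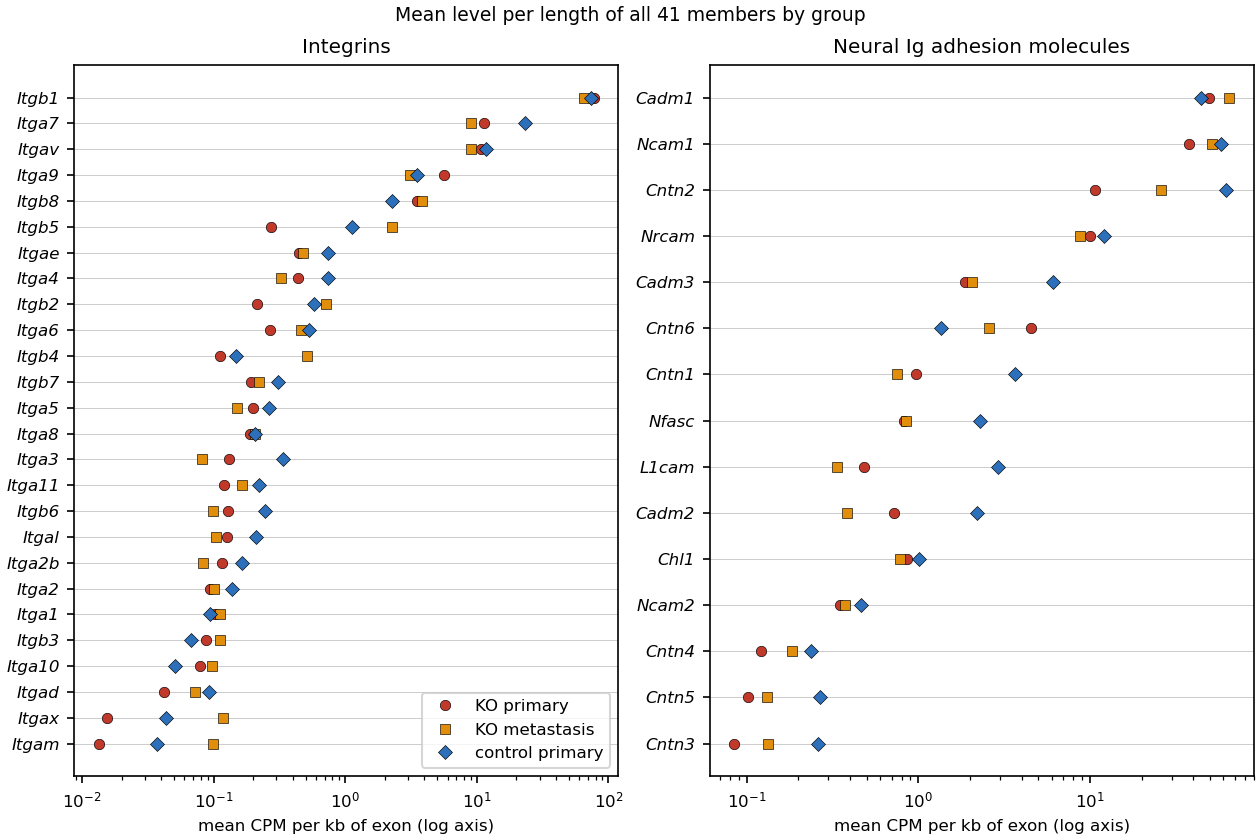
Mean level of each of the 41 genes in CPM per kilobase of exon (log axis), integrins and neural adhesion molecules in separate panels, with 1 symbol for each of the KO primary (n = 4), KO metastasis (n = 4) and control primary (n = 5) groups. Itgb1 leads the integrins at 65.8 to 77.2 CPM per kb in the 3 groups, and Cntn2 spreads between 10.7 CPM per kb in KO primary and 62.1 in control primary libraries.

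The comparison of KO primary with control primary tumours asked how adhesion genes differ at the primary site when Kmt2d is lost. All edgeR calls among these genes were lower in KO primary tumours, and all were neural adhesion molecules: the contactins Cntn1 and Cntn2, the L1 family members L1cam and Nfasc, and Cadm3. In the edgeR quasi-likelihood test over 22265 genes, 5 of the 40 genes that passed the filter on low counts were called at an adjusted p below 0.05 (12.5%), against 2.96% of all genes tested (1.79% lower and 1.17% higher). EdgeR called none of the 25 integrins tested, and 4 of them had an unadjusted p below 0.05. Over all 40, 12 had an unadjusted p below 0.05 (13.6% of all genes did), 32 log2 changes were negative and 8 positive, and the median was -0.73, against -0.05 over all genes. In 7 of the 40 every KO primary library lay below every control library, against 3.85% of all genes, and in 0 of the 40 above, against 3.57% of all genes (7.42% in either direction). DESeq2 called 12 of 41 of these genes, 10 lower and 2 higher, against 3.62% of the 45971 genes it was run on. Limma voom called 12 of 40, 11 lower and 1 higher, against 14.6% of all genes. Without the 4 high-background libraries 9 of 36 were called, 8 lower and 1 higher, against 7.08% of all genes, and without control primary 3 alone 8 of 37, against 5.22% of all genes. Without the 3 controls that carried Xist, which leaves controls 3 and 4, only Cadm3 was called (log2 change -1.60, adjusted p = 0.0377), against 0.551% of all genes. The log2 changes of Cntn1 (-1.98), Cntn2 (-2.32), L1cam (-2.37) and Nfasc (-1.66) in that fit missed the threshold, with adjusted p of 0.0720 to 0.189.

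Most markers of differentiating granule neurons were lower in the same comparison. The summed level of 10 markers of differentiating granule neurons, among them Neurod1, Tubb3 and Stmn2, was 1210 to 1319 CPM in KO primary tumours, 1206 to 2044 CPM in KO metastases and 2128 to 3202 CPM in control primary libraries. Of the 10, 8 were lower and 0 higher in KO primary tumours, and 6 were lower and 0 higher in KO metastases, both against control primary tumours. Over all genes tested, 1.79% were lower and 1.17% higher in KO primary tumours, and 2.01% were lower and 1.06% higher in KO metastases. Mature granule neuron markers summed to 194 to 230 CPM in KO primary tumours, 199 to 239 CPM in KO metastases and 274 to 545 CPM in control primary libraries. Of these 8, 2 were lower and 1 higher in KO primary tumours, and 3 were lower and 1 higher in KO metastases, both against control primary tumours. The higher one was Cbln1, a synapse organiser secreted by granule neurons, at 58.9 ± 4.33 CPM in KO primary (adjusted p = 0.0186) and 74.8 ± 18 in KO metastasis (adjusted p = 0.00208), against 34.4 ± 4.96 CPM in control primary tumours. In sorted bulk cells, fewer differentiating cells and less RNA of these genes in each cell cannot be told apart, and the part of cell composition in the lower L1cam, Cntn1, Cntn2, Nfasc and Cadm3 levels was not tested.

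Of the 6 contactins, Cntn1 and Cntn2 fell in KO primary tumours. Cntn2 (chr1:132509427-132543256, minus strand, GRCm38), a marker of granule neurons that have left the cycle, was at 144, 87.1, 78.8 and 88.9 CPM in the KO primary tumours 3, 4, 6 and 7, at 460, 234, 172 and 96.4 CPM in the KO metastases of the same numbers, and at 204, 777, 423, 728 and 758 CPM in control primary 3 to 7. Every KO primary library was below every control library, while KO metastasis 3 and 4 overlapped the lowest control. Cntn2 averaged 99.7 ± 29.8 CPM in KO primary tumours and 578 ± 254 CPM in control primary tumours (SD, n = 4 and 5), which is a log2 change of -2.54 (SE 0.467, adjusted p = 0.00900). Cntn1 (chr15:92051165-92341967, plus strand), a contactin of axons and their contacts with glia, was at 8.10, 4.57, 13.1 and 10.8 CPM in KO primary tumours, at 5.75, 5.23, 11 and 6.56 CPM in KO metastases, and at 28.8, 45.0, 46.9, 24.6 and 26.4 CPM in control primary libraries. No knockout library reached the lowest control, and the log2 change in KO primary tumours was -1.91 (SE 0.334, adjusted p = 0.00681).

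Cntn6 (NB-3) ran the other way without passing the test. Its levels were 70.2, 27.0, 15 and 5.90 CPM in KO primary tumours, 13.9, 29.0, 19.0 and 5.75 CPM in KO metastases, and 12.7, 9.24, 9.35, 9.46 and 3.34 CPM in control primary libraries. KO primary 7 and KO metastasis 7 lay among the controls, and the other knockout libraries lay above them all. The log2 change in KO primary tumours was 1.74 (SE 0.605, adjusted p = 0.170). Without KO primary 7 it was 2.10 with an adjusted p of 0.0485, without the 4 high-background libraries 2.27 with 0.0240, and DESeq2 gave an adjusted p of 0.0478. Without KO primary 3, the highest library, the log2 change was 0.85, with an adjusted p of 0.827. Cntn3, Cntn4 and Cntn5 averaged 0.463 to 1.03 CPM in KO primary tumours and 1.21 to 2.01 CPM in control primary libraries and were not called.

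In the L1 family, L1cam and Nfasc fell in KO primary tumours. L1cam (chrX:73853778-73896105, minus strand), which drives axon growth and bundling, was at 5.55, 3.21, 2.01 and 3.39 CPM in KO primary tumours, at 1.58, 3.34, 0.913 and 4.06 CPM in KO metastases, and at 7.76, 28.3, 30.4, 20.2 and 20.6 CPM in control primary libraries. The groups did not overlap, and control primary 3, the library with the highest receptor level, was the lowest control. L1cam averaged 3.54 ± 1.47 CPM in KO primary tumours and 21.5 ± 8.89 CPM in control primary tumours, 6.06-fold lower (log2 change -2.60, SE 0.488, adjusted p = 0.00999). Without KO primary 4 the adjusted p was 0.0533. L1cam is on the X chromosome, and 3 controls carried Xist. Against the 2 controls without it, 3 and 4, the log2 change was -2.37, with an adjusted p of 0.189.

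Nfasc (chr1:132564690-132741797, minus strand), neurofascin, which organises the axon initial segment and the node of Ranvier, was at 10.9, 9.74, 10.2 and 15.7 CPM in KO primary tumours, at 8.94, 10.2, 15.6 and 13 CPM in KO metastases, and at 22.2, 51.1, 30.9, 27.6 and 29.6 CPM in control primary libraries. All 8 knockout libraries lay below the lowest control, with a log2 change of -1.47 in KO primary tumours (SE 0.259, adjusted p = 0.00685). Nrcam, which binds contactins on axons, was at 195, 122, 92.2 and 125 CPM in KO primary tumours, at 81.8, 174, 117 and 97.1 CPM in KO metastases, and at 88.0, 223, 112, 221 and 168 CPM in control primary libraries. The groups overlapped widely, and the 95% interval of its log2 change in KO primary tumours ran between -0.94 and 0.38. Chl1, the close homologue of L1, was at 7.68, 7.56, 18 and 9.18 CPM in KO primary tumours, at 7.43, 6.63, 17.5 and 6.76 CPM in KO metastases, and at 12.1, 12, 19.5, 9.72 and 8.91 CPM in control primary libraries, with overlap and no call.

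Of the Cadm family, Cadm3 was called lower in KO primary tumours. Cadm3 (chr1:173333258-173367695, minus strand), a nectin-like molecule of axons, was at 11.5, 12, 12.9 and 17.9 CPM in KO primary tumours, at 19.1, 13, 14.2 and 13.1 CPM in KO metastases, and at 31.4, 51.8, 56.0, 39.7 and 42.0 CPM in control primary libraries. No library of either knockout group reached the controls, and the log2 change in KO primary tumours was -1.70 (SE 0.208, adjusted p = 6.97e-04), the smallest p of the 40. Cadm2 (chr16:66655421-67620908, minus strand), a synaptic adhesion molecule, was at 11, 6.86, 5.26 and 5.36 CPM in KO primary tumours, at 4.78, 1.56, 5.55 and 3.19 CPM in KO metastases, and at 14.3, 39.0, 27.1, 15.1 and 12.6 CPM in control primary libraries. These groups did not overlap either, but the adjusted p for KO primary tumours was 0.0614 (log2 change -1.60, SE 0.423). It was 0.0358 without control primary 3 and 0.00320 with DESeq2. Cadm1 was at 575, 549, 432 and 520 CPM in KO primary tumours, at 739, 812, 566 and 585 CPM in KO metastases, and at 456, 429, 423, 428 and 571 CPM in control primary libraries. KO primary 6 and control primary 7 made these groups overlap, and the log2 change in KO primary tumours was 0.17 (adjusted p = 0.769).

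Ncam1 was at 343, 328, 245 and 401 CPM in KO primary tumours, at 598, 465, 339 and 389 CPM in KO metastases, and at 362, 561, 440, 539 and 623 CPM in control primary libraries. KO primary 7 overlapped control primary 3, and the log2 change of -0.62 (SE 0.203) was not called, with an adjusted p of 0.144. The adjusted p was 0.0466 without control primary 3, 0.0205 without the 4 high-background libraries and 0.0238 with DESeq2. Ncam2 averaged 3.95 ± 1.05 CPM in KO primary tumours and 5.28 ± 1.78 CPM in control primary libraries and was not called.

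**Figure D2:**
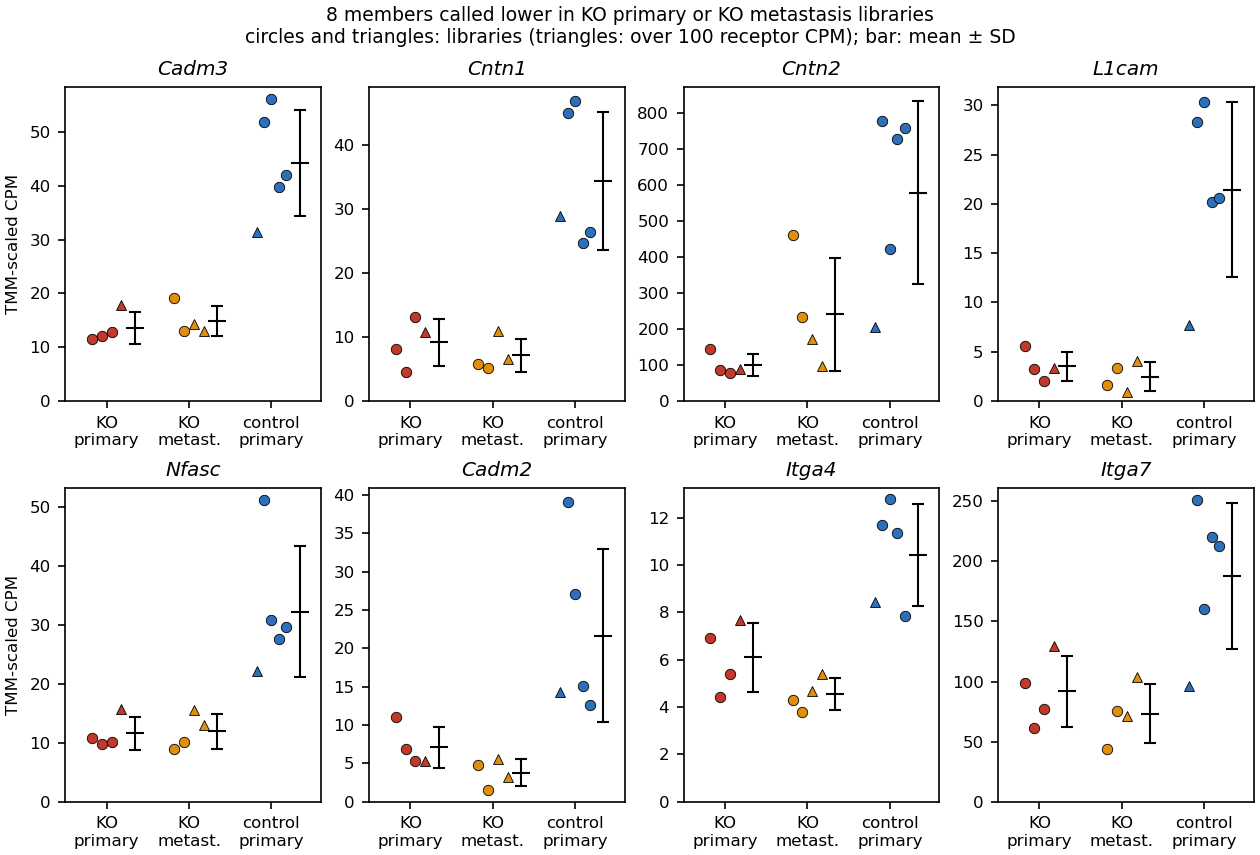
Level in TMM-scaled CPM of the 8 genes called lower in KO primary or KO metastasis libraries against control primary libraries, 1 panel each, with a symbol per library (triangles for libraries above 100 receptor CPM) and the mean ± SD of each group. In L1cam all 8 knockout libraries lie at or below 5.55 CPM and all 5 controls at or above 7.76 CPM, whereas for Cntn2 KO metastasis 3 and 4 lie above control primary 3.

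EdgeR called no integrin between KO primary and control primary tumours. DESeq2 called Itga4, Itga7 and Itgb5 lower and Itgb8 higher in KO primary tumours. Limma voom called these 4 in the same directions and Itga6 lower. Itgb1 was at 391, 335, 245 and 289 CPM in KO primary tumours, at 221, 354, 253 and 247 CPM in KO metastases, and at 154, 342, 309, 357 and 338 CPM in control primary libraries. Control primary 3 was the lowest library of all and the groups overlapped, with a log2 change of 0.071 in KO primary tumours (95% interval -0.42 to 0.57). The sign turned without KO primary 3 (-0.063), without control primary 3 (-0.092), without the 4 high-background libraries (-0.043) and with limma voom (-0.11). Itgav was at 117, 106, 103 and 137 CPM in KO primary tumours, at 58.6, 102, 116 and 110 CPM in KO metastases, and at 63.5, 150, 135, 149 and 138 CPM in control primary libraries. Its KO primary interval ran between -0.66 and 0.39 on the log2 scale.

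Itga7 (chr10:128933818-128958282, plus strand) was at 99.1, 61.1, 77.5 and 130 CPM in KO primary tumours, at 43.5, 75.5, 71.1 and 103 CPM in KO metastases, and at 96.4, 251, 160, 220 and 213 CPM in control primary libraries. Control primary 3 lay among the knockout libraries, and the other 4 controls lay above all of them. The log2 change in KO primary tumours was -1.04 (SE 0.305, adjusted p = 0.0960). It was -1.20 with an adjusted p of 0.0192 without control primary 3, and -1.40 with 0.00678 without the 4 high-background libraries. Itga4 (chr2:79255426-79333123, plus strand), the chain that binds VCAM1 and fibronectin, was at 6.90, 4.43, 5.4 and 7.69 CPM in KO primary tumours, at 4.31, 3.79, 4.67 and 5.41 CPM in KO metastases, and at 8.44, 11.7, 12.8, 11.4 and 7.83 CPM in control primary libraries. All knockout libraries lay below all controls, though KO primary 7 was close to control primary 7, and the adjusted p for KO primary tumours was 0.103 (log2 change -0.77, SE 0.231). With DESeq2 it was 0.00764.

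Itgb8, which pairs with Itgav and releases active TGF-beta, was at 31.1, 44.6, 44.1 and 37.0 CPM in KO primary tumours, at 33.5, 56.1, 44.5 and 35.1 CPM in KO metastases, and at 18.7, 32.5, 22.0, 27.7 and 24.2 CPM in control primary libraries. KO primary 3 lay below control primary 4, and the log2 change of 0.65 (SE 0.196) had an adjusted p of 0.107 with edgeR and 0.0280 with DESeq2. Itga9, a receptor chain for tenascin-C, was at 72.6, 44.0, 28.3 and 29.6 CPM in KO primary tumours, at 16.6, 34.8, 22.8 and 22.2 CPM in KO metastases, and at 25.3, 22.2, 43.8, 28.2 and 15.9 CPM in control primary libraries, with overlap in every comparison. Itga6 averaged 2.44 ± 1.72 CPM in KO primary tumours and 4.83 ± 2.16 CPM in control primary libraries, with a log2 change of -0.99 and an adjusted p of 0.422. Apart from Itgb5, described below, the other 18 integrins averaged 3.61 CPM or less in every group.

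**Figure D3:**
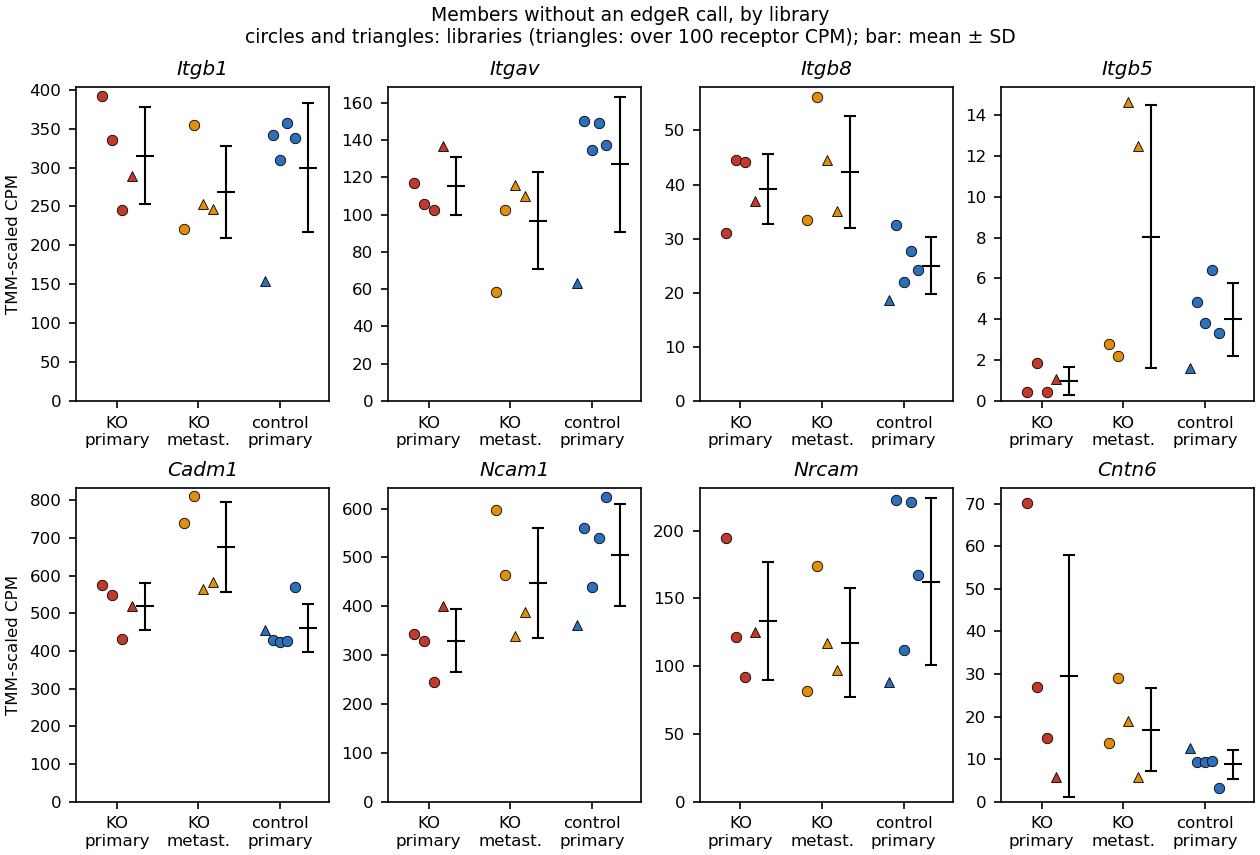
Level in TMM-scaled CPM of Itgb1, Itgav, Itgb8, Itgb5, Cadm1, Ncam1, Nrcam and Cntn6, 1 panel each. Each panel has a symbol per library (triangles for libraries above 100 receptor CPM) and the mean ± SD of each group. Itgb1 and Itgav overlap across the 3 groups with control primary 3 near the bottom, and Itgb8 is at 31.1 CPM or more in knockout libraries, against 18.7 to 32.5 CPM in control libraries.

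Against the same control libraries, edgeR called 7 genes lower in KO metastases and none higher. Cntn1, L1cam, Nfasc and Cadm3 were again called, Cadm2, Itga4 and Itga7 were called here, and Cntn2 was not. These were 7 of 40 genes (17.5%), against 3.07% of all genes tested (2.01% lower and 1.06% higher). The median log2 change of the 40 was -0.42, against -0.04 over all genes, and 10 of the 40 had an unadjusted p below 0.05, against 14.2% of all genes. Every metastasis lay below every control in 6 of the 40 (4.01% of all genes) and above in 1, Itgb8 (2.81% of all genes, and 6.82% in either direction). As both comparisons use the same 5 controls, the counts are not independent. Without the 4 high-background libraries 10 of 36 were called, 9 lower and 1 higher, against 6.33% of all genes. DESeq2 called 10 of 41, 8 lower and 2 higher (Cadm1 and Itgb8), against 3.57% of the 45971 genes it was run on. That total includes genes below the filter on low counts, so its share is not comparable with those of edgeR and limma voom. Limma voom called 14 of 40, 10 lower and 4 higher, against 17.3% of 22265 genes. Without the 3 controls that carried Xist only Cntn1 was called (log2 change -2.32, adjusted p = 0.0404), against 0.377% of all genes. The log2 changes of Cadm2 (-2.80), Cadm3 (-1.43), L1cam (-2.84), Nfasc (-1.59), Itga4 (-1.08) and Itga7 (-1.22) in that fit missed the threshold, with adjusted p of 0.0568 to 0.399.

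L1cam averaged 2.47 ± 1.47 CPM in KO metastases and 21.5 ± 8.89 CPM in control primary tumours, 8.62-fold lower (log2 change -3.11, SE 0.502, edgeR adjusted p = 0.00405). Cntn1 had a log2 change of -2.27 (adjusted p = 0.00267), Nfasc of -1.44 (adjusted p = 0.00781) and Cadm3 of -1.57 (adjusted p = 0.00110). Cadm2 averaged 3.77 ± 1.77 CPM in KO metastases and 21.6 ± 11.3 CPM in control primary tumours, a log2 change of -2.52 (SE 0.443, adjusted p = 0.00666). The values by library stand above, and for these 5 genes no metastasis reached a control. Cntn2 averaged 241 ± 157 CPM in KO metastases and 578 ± 254 CPM in control primary tumours, with overlap, a log2 change of -1.26 and an edgeR adjusted p of 0.175. DESeq2 gave Cntn2 an adjusted p of 0.0436 and limma voom 6.93e-04. Without control primary 3 that change was -1.48 with an adjusted p of 0.0376.

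The calls of both integrin chains in KO metastases were lost when some libraries were left out. Itga4 averaged 4.55 ± 0.679 CPM in KO metastases and 10.4 ± 2.17 CPM in control primary tumours, a log2 change of -1.20 (SE 0.235, adjusted p = 0.0132). The adjusted p was 0.0565 without KO metastasis 4 and 0.05001 without KO metastasis 6. Itga7 averaged 73.4 ± 24.5 CPM in KO metastases and 188 ± 60.8 CPM in control primary tumours, a log2 change of -1.36 (SE 0.308, adjusted p = 0.0286). Its adjusted p was 0.105, 0.0841 and 0.0886 without KO metastasis 3, 4 or 6, and 0.0839, 0.0713 and 0.0682 without control primary 4, 6 or 7. Itgb8 averaged 42.3 ± 10.4 CPM in KO metastases and 25 ± 5.31 CPM in control primary tumours and did not overlap, but its adjusted p was 0.0534 (log2 change 0.76). It was 0.0491 without control primary 4. Cadm1 averaged 676 ± 120 CPM in KO metastases and 461 ± 62.5 CPM in control primary tumours (log2 change 0.55, adjusted p = 0.0576), and its adjusted p was 0.0396 without control primary 7.

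Between KO metastases and KO primary tumours, which asked what differs at the spinal site, edgeR called 0 of the 40 genes and 1 of all 22265 (0.00449%). That gene was Mbp, a marker of myelinating oligodendrocytes, at 245 ± 117 CPM in KO metastases and 44.2 ± 8.03 CPM in KO primary tumours (adjusted p = 0.0483). DESeq2 called 1 of 41, Itgb5, against 0.0848% of the 45971 genes it was run on. Limma voom called 0 of 40, against 0.00898% of 22265 genes. By unadjusted p below 0.05, 4 of the 40 stood out (3.23% of all genes did): Itgb5, Cntn2, Cadm1 and Itga9. The median log2 change of the 40 was 0.11, against -0.0038 over all genes.

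Itgb5, a partner of Itgav in vitronectin receptors, was at 2.80, 2.23, 14.6 and 12.5 CPM in the KO metastases 3, 4, 6 and 7, at 0.443, 1.88, 0.450 and 1.08 CPM in the KO primary tumours of the same numbers, and at 1.60, 4.86, 3.84, 6.41 and 3.34 CPM in control primary 3 to 7. Every metastasis was above every KO primary library, the only one of the 40 so placed (0.683% of all genes, with 1.04% placed below), and KO metastasis 6 and 7 were far above the rest. The log2 change was 3.06 (SE 0.699, unadjusted p = 6.62e-04, edgeR adjusted p = 0.9998, DESeq2 adjusted p = 0.00527). Without the 4 high-background libraries, which include KO metastasis 6 and 7, it was 1.44. In the same libraries the summed level of 9 myelinating oligodendrocyte markers came to 1944 CPM in metastasis 6 and to 827 CPM in metastasis 7, against 69.0 to 99.7 CPM in KO primary libraries. The summed level of 14 microglia and macrophage markers was 271 and 213 CPM in these metastases, against 5.29 to 21.1 CPM in KO primary libraries. Against control primary tumours, the Itgb5 log2 change in KO primary tumours was -2.05 (edgeR adjusted p = 0.132, DESeq2 adjusted p = 0.0158). In KO metastases against control primary tumours it was 1.00 (edgeR adjusted p = 0.538). The part of other cells in the Itgb5 level was not tested.

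Cntn2 averaged 241 ± 157 CPM in KO metastases and 99.7 ± 29.8 CPM in KO primary tumours, a log2 change of 1.27 (SE 0.460, unadjusted p = 0.0155, adjusted p = 0.9998). Cadm1 had a log2 change of 0.38 (unadjusted p = 0.0266) and Itga9 of -0.85 (unadjusted p = 0.0281), and both had an adjusted p of 0.9998. KO metastasis 7 lay among the KO primary libraries for Cntn2, so the groups overlapped. For Cadm3 the 95% interval of the difference between metastases and KO primary tumours ran between -0.32 and 0.58, for Nfasc between -0.53 and 0.60 and for L1cam between -1.55 and 0.53.

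**Figure D4:**
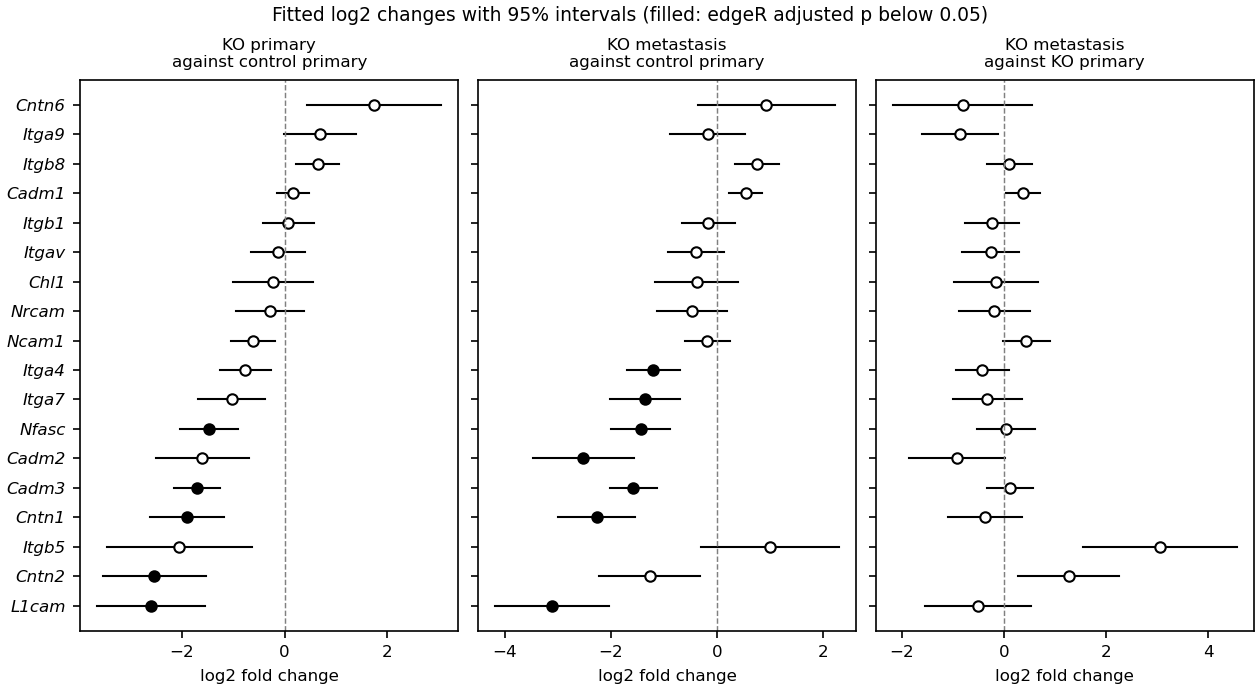
Fitted log2 change of each named gene with its 95% interval in the 3 comparisons, KO primary against control primary, KO metastasis against KO primary and KO metastasis against control primary, with filled symbols for an edgeR adjusted p below 0.05. L1cam, Cntn1, Nfasc and Cadm3 are filled and left of 0 in both comparisons with control tumours, and no symbol is filled between metastases and KO primary tumours.

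Most low-level integrins were highest in the high-background libraries. Of the 41 genes, 20 averaged below 2 CPM over all libraries, and 17 of them were integrins, among them the leukocyte chains Itgb2, Itgal, Itgam, Itgax and Itgad, the platelet chains Itga2b and Itgb3 and the fibronectin chain Itga5. For 19 of the 20, the library with the highest level was one of the 4 high-background ones, and Cntn3, highest in control primary 5, was the exception. Their summed level was 27.6 to 67.8 CPM in these 4 libraries and 4.88 to 16.3 CPM in the other 9. Itgam, a chain of macrophages and neutrophils, did not pass the filter, at 0.0677 ± 0.135 CPM in KO primary tumours, 0.498 ± 0.554 CPM in KO metastases and 0.186 ± 0.285 CPM in control primary libraries. Gm49368 overlaps 68.7% of its exons. Platelet markers summed to 0.463 to 3.20 CPM in KO primary tumours, 0.928 to 4.17 CPM in KO metastases and 0.861 to 2.97 CPM in control primary libraries, and endothelial markers to 2.35 to 17.4 CPM in KO primary, 1.87 to 10.9 in KO metastasis and 1.21 to 25.6 in control primary libraries. In the main edgeR fit none of the 19 that passed the filter was called in any comparison. Without the 4 high-background libraries edgeR called Itgal in KO metastasis against control primary. Limma voom on all libraries called Itga1 and Itgb6 in the same comparison. The part of background reads in the levels of these 20 genes was not tested.

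**Figure D5:**
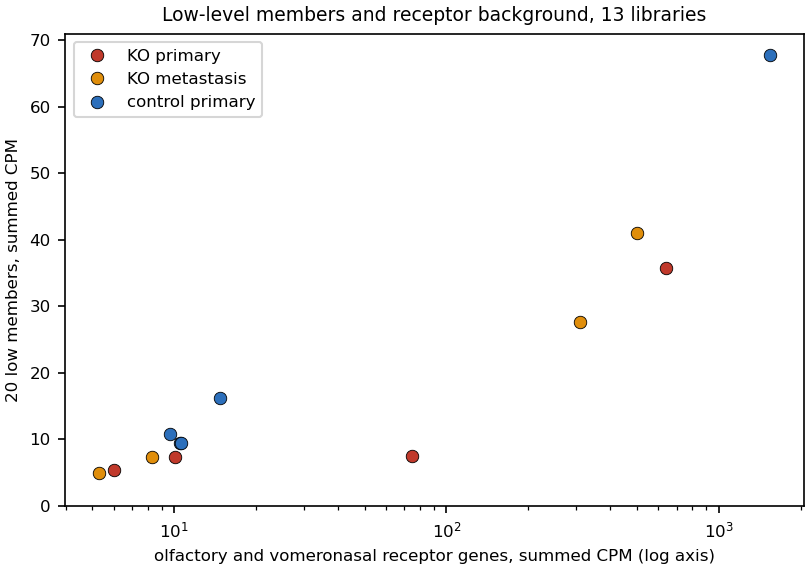
Summed CPM of the 20 genes that average below 2 CPM, against the summed CPM of olfactory and vomeronasal receptor genes (log axis), with 1 point for each of the 13 libraries coloured by group. The 4 libraries above 100 receptor CPM sum to 27.6 to 67.8 CPM, and the other 9 to 4.88 to 16.3 CPM.

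Few known partners of these genes, in lists chosen by role, were called. Of 29 integrin ligands tested, 3 rose in KO primary tumours (1.17% of all genes did), among them the basement membrane collagen chains Col4a1, at 262 ± 94.4 CPM in KO primary tumours and 83.6 ± 26.4 CPM in control primary tumours (adjusted p = 0.0420), and Col4a2, at 71.8 ± 13.7 CPM in KO primary and 27.9 ± 7.80 CPM in control primary tumours (adjusted p = 0.0459). The third was Mfge8, a secreted ligand of Itgav receptors (adjusted p = 0.0461). Markers of pericytes and mural cells, which make basement membrane collagen, summed to 10.6 to 34.9 CPM in KO primary, 10.1 to 11.2 in KO metastasis and 3.06 to 16.6 in control primary libraries. Of the 5 tested, Kcnj8 and Abcc9 rose in KO primary tumours (adjusted p = 0.0203 and 0.0199), the median log2 change was 1.75, and their part in the collagen levels was not tested. In KO metastases only Lama1 of the 29, a laminin chain, was called, lower at 4.14 ± 1.76 CPM, against 17.5 ± 10.7 CPM in control primary tumours (adjusted p = 0.0245). The median log2 change of the 29 was 0.02 in KO primary tumours and 0.23 in KO metastases, both against control primary tumours. Of 27 genes of the integrin adhesion complex, Actn1 (alpha-actinin 1) rose in both, at 14.1 ± 1.82 CPM in KO primary (adjusted p = 0.0108) and 11.6 ± 3.20 CPM in KO metastasis (adjusted p = 0.0390), against 5.72 ± 1.75 CPM in control primary tumours. Lims1 (PINCH1) also rose in KO metastases, with a log2 change of 0.56 (adjusted p = 0.0389). Over all genes tested, 1.17% were called higher in KO primary tumours. In KO metastases 1.06% were called higher and 2.01% lower.

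Of 26 anchors and partners of the neural adhesion molecules, such as ankyrins, spectrins and contactin-associated proteins, 0 were called in KO primary tumours (median log2 change -0.32) and 1 was lower in KO metastases (median -0.23). That gene was Ank2, ankyrin B, at 101 ± 9.93 CPM in KO metastases and 185 ± 53.1 CPM in control primary tumours (adjusted p = 0.0289). Of 26 other neural adhesion molecules with immunoglobulin domains, 3 were lower and 0 higher in KO primary tumours (median -0.47), and 5 were lower and 0 higher in KO metastases (median -0.24). Over all genes tested, 1.79% were lower in KO primary tumours (median -0.05) and 2.01% in KO metastases (median -0.04). Igsf8, a partner of tetraspanins, was at 186 ± 42.1 CPM in KO primary tumours and 213 ± 33.2 CPM in KO metastasis, against 732 ± 226 CPM in control primary tumours (adjusted p = 6.58e-04 and 0.00125). Cd200, an immune-regulatory molecule of neurons, was at 14.1 ± 5.22 CPM in KO primary and 7.62 ± 1.69 in KO metastasis, against 41.8 ± 8.66 CPM in control primary tumours (adjusted p = 0.00524 and 3.96e-04). Lsamp, of the IgLON family, was at 27.6 ± 5.31 CPM in KO primary and 26.8 ± 7.15 in KO metastasis, against 55.5 ± 9.08 CPM in control primary tumours (adjusted p = 0.0176 and 0.0137). Negr1 and Mpzl1 were called lower in KO metastases (adjusted p = 0.0272 and 0.0484). Between KO metastases and KO primary tumours none of the genes in these 4 lists was called.

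Myelinating oligodendrocyte markers, relevant to Nfasc and Cntn1, which glia of the oligodendrocyte lineage also use, summed to 69.0 to 99.7 CPM in KO primary tumours, 173 to 1944 CPM in KO metastases and 145 to 404 CPM in control primary libraries. Nfasc was at 15.6 and 13 CPM in KO metastasis 6 and 7, where these markers were highest, and the part of these cells in its level was not tested. Oligodendrocyte precursor markers summed to 285 to 563 CPM in KO primary tumours, 224 to 382 CPM in KO metastases and 300.2 to 641 CPM in control primary libraries. Of these 7 markers, Pdgfra, Cspg4, Gpr17 and Vcan were lower in KO metastases than in controls and 0 were higher (median log2 change -1.34). None was called in KO primary tumours (median -0.63). Of the 9 myelinating markers, 2 were higher in KO metastases and 1 lower in KO primary tumours than in controls. Over all genes tested, 2.01% were lower and 1.06% higher in KO metastases. The part of precursors in the Nfasc and Cntn1 levels was not tested.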

How the data were processed

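The authors deposited raw counts per gene for 13 RNA-seq libraries. The tools named in the submitters' processing notes are HTSeq 0.6.1, STAR 2.4 and DESeq2, with build mm10 (GRCm38), and per the labels' protocols libraries were made with a TruSeq kit. No source used here gives the strand setting of the counting, so it is not known whether genes on opposite strands were kept apart. Cerkl covers 8.04% of the exons of Itga4 on the opposite strand. Ackr1 covers 4.98% of the exons of Cadm3 on the same strand, where a strand setting would not separate the 2 genes. Gm42957 likewise covers 33.5% of the exons of Itga10 on the same strand.

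All libraries were fitted in 1 model of the 3 groups with edgeR 4.0.16 in R 4.3.3: filterByExpr (minimum count 10, minimum total 15), TMM, robust quasi-likelihood F tests, and Benjamini-Hochberg adjustment over 22265 genes, with calls below 0.05. Standard errors follow from the F statistic. CPM use TMM-scaled totals, and lengths and coordinates come from GENCODE M21 on GRCm38 (1-based). Promoter sequences are RefSeq's. DESeq2 1.42.0, limma voom 3.58.1 with quality weights, other scalings and filters, and left-out libraries were alternatives, of which the fit without robust estimation was added after the data were seen. The test was checked on simulated counts. The members and lists were chosen with earlier results of these data known. Full values were given for members called in any comparison, the 3 with the highest level per kb of each family, members with the smallest p where fewer than 3 were called, and members of at least 5 CPM on average. No 2 libraries were copies, as any pair differed in at least 24634 genes. Counting intervals are not given, since no molecular identifiers are stated.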

Additional observations from a re-analysis of the deposited data

Results flagged for a closer look

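In 6 of the 54 groups of libraries looked at over 18 named genes, 1 library stood apart from its group by Dixon's 95% criterion, which flags about 1 in 20 groups by chance. Control primary 3 had the lowest Itgb1 level of its group, 154 CPM against 309 to 357 CPM in the other 4 controls, and the lowest Itgav level, 63.5 CPM against 135 to 150 CPM. The same library had the highest receptor level of all, at 1546 CPM. Chl1 was highest in KO metastasis 6, at 17.5 CPM against 6.63 to 7.43 CPM in the other metastases, and in KO primary 6, at 18 CPM against 7.56 to 9.18 CPM. Cntn2 was highest in KO primary 3, at 144 CPM against 78.8 to 88.9 CPM in the other KO primary libraries. Cadm1 was highest in control primary 7, at 571 CPM against 423 to 456 CPM in the other controls.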

How the results depend on the processing

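Counts of calls below are given for KO primary against control primary, KO metastasis against KO primary, and KO metastasis against control primary. DESeq2 called 12 of the adhesion genes in KO primary against control primary and 1 in KO metastasis against KO primary, with 1665, 39 and 1639 of all genes, and limma voom called 12 in KO primary and 14 in KO metastasis against control primary, with 3250, 2 and 3861. Without the 4 high-background libraries 9 adhesion genes were called in KO primary against control primary, with 1431, 5 and 1279 of all genes. Without the 3 controls with Xist, which leaves control primary 3 and 4, 1 adhesion gene was called in KO primary (Cadm3) and 1 in KO metastasis (Cntn1) against control primary, with 155, 0 and 106 of all genes. Library totals without TMM, and the comparison of the 2 groups alone, gave 0 genes between the knockout groups in place of 1. Leaving out 1 library at a time gave 4 to 8, 0 to 0 and 5 to 8 adhesion genes and 280 to 1044, 0 to 1 and 375 to 1211 of all genes. Cntn1, Cntn2, Cadm3 and Nfasc kept their calls in KO primary tumours in each of these 9 fits. The numbers that libraries share are not stated to pair them: same-numbered KO metastasis and KO primary libraries had deviations that correlated at 0.356, 0.488, -0.00473 and 0.675 for numbers 3, 4, 6 and 7, and the highest correlation with another number was 0.354, 0.520, 0.686 and -0.105, so numbers 4 and 6 correlated best with a different number. With the number as a replicate block, 6, 0 and 7 adhesion genes and 680, 0 and 638 of all genes were called. The block gained Itgb8 in KO primary and KO metastasis against control primary (adjusted p = 0.0309 and 0.0179) and lost Itga4 in KO metastasis (0.0538).

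The directions that turned were all of genes without a call in that comparison in the main edgeR fit. In KO primary against control primary, Itgav turned to 0.11 without the Xist controls, and Itgb1 to -0.11 with limma voom and -0.043 without the high-background libraries (-0.092 to 0.18 leaving out 1 library). In KO metastasis against KO primary, limma voom gave 0.082 for Itga7 and -0.023 for Itgb8 (-0.029 to 0.25 leaving out 1 library), and Nfasc was -0.10 without the high-background libraries (-0.072 to 0.22). Chl1 (-0.58 to 0.23), Cntn6 (-1.18 to 0.10) and Nrcam (-0.41 to 0.086) also turned there by library. In KO metastasis against control primary, Itga9 was 0.091 with the block and 0.11 without the Xist controls (-0.38 to 0.093 leaving out 1 library), Itgb1 0.15 and Ncam1 0.020 without the Xist controls, and Itgb5 -0.86 without the high-background libraries. The cause was not tested. DESeq2, library totals without TMM and leaving out the Xist controls moved the median log2 change of all genes in KO primary against control primary to -0.17, -0.12 and -0.22, against -0.05. Of the 20 genes below 2 CPM, 19 were highest in a high-background library. The part of background and of depth in their levels was not tested.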
